A study of Mus musculus with 15 samples.

Results

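Tmem119, Olfml3, Selplg, Sparc, Crybb1, Fscn1, Golm1, Serinc3 and Ltc4s are 9 genes used as markers of homeostatic microglia, the state of these cells in healthy brain. They were taken by name from the 36528 gene entries of each library, all 9 were found, and all 9 passed the filter on low counts that left 13994 genes. The libraries hold RNA of cells sorted by flow cytometry from mouse cortex for green fluorescent protein under Cx3cr1, a chemokine receptor gene that microglia express at high level. Of the 15 libraries, 9 are PS2APP, a mouse line in which mutant human presenilin 2 and mutant human amyloid precursor protein are expressed from transgenes and plaques form, and 6 are non-transgenic wild type, called non-Tg here. At 14 months of age there were 4 PS2APP and 2 non-Tg libraries, and at 15 months 5 and 4. Both genotypes carry the reporter, and the labels give neither the promoters of the transgenes nor whether the reporter replaces a Cx3cr1 allele. The labels also do not say that each library is a separate mouse, so p-values measure the spread between these libraries. Total counts ranged from 3664742 to 8455237, with a median of 5867848.

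Microglia are the resident macrophages of the brain. In healthy tissue they hold a program of surface receptors, secreted proteins and membrane proteins that depends on transforming growth factor beta and on the transcription factors PU.1, IRF8 and SALL1. Near amyloid plaques they are known to switch to another program, in which Apoe, Cst7 and Itgax are high and many homeostatic genes are lower. Of the 9 genes, Tmem119 encodes a membrane protein used to tell microglia from other macrophages, and Selplg encodes PSGL-1, the selectin ligand of leukocytes. Olfml3 and Sparc encode secreted glycoproteins of the extracellular matrix. Crybb1 encodes a beta crystallin best known from the lens, Fscn1 the actin-bundling protein fascin, Golm1 a Golgi membrane glycoprotein, Serinc3 a multipass membrane protein of the SERINC family, and Ltc4s leukotriene C4 synthase.

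The genes lie on 5 chromosomes of GRCm38, and 4 of the 9 are on chromosome 5. Tmem119 (chromosome 5, 113793729 to 113800396, minus strand) and Selplg (113817798 to 113832528, minus strand) are close neighbours, 17401 bases apart with 2 RefSeq genes, Gm42004 and Gm19931, between them. Crybb1 (112254563 to 112269585) and Fscn1 (142960355 to 142973189) are on the plus strand of the same chromosome. Olfml3 lies on chromosome 3 (103735394 to 103738001), Serinc3 on chromosome 2 (163623273 to 163645149) and Golm1 on chromosome 13 (59634996 to 59675784). Sparc (55394159 to 55420080) and Ltc4s (50236461 to 50238532) lie on chromosome 11. All are protein coding. Golm1, Serinc3 and Ltc4s each overlap a gene on the opposite strand (Naa35, 0610039K10Rik and Gm26542), and since no source gives the strand setting of the counting, reads of these pairs cannot be told apart.

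Promoters are shown for Fscn1 and Serinc3, the genes with the largest and the smallest estimated genotype difference, and for Olfml3, a matrix gene between them. Each is the 250 bases before the start site in RefSeq (GRCm38.p6), written 5′ to 3′ along the gene, with GGAA or its reverse complement TTCC, the core that PU.1 and other ETS factors read, in capitals.
Fscn1, chr5:142960105-142960354, plus strand: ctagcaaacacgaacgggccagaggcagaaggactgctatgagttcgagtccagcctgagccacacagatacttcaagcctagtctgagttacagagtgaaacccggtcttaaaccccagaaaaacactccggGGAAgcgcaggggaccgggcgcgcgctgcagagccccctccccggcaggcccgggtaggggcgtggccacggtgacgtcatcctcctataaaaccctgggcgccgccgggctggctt
Olfml3, chr3:103738002-103738251, minus strand: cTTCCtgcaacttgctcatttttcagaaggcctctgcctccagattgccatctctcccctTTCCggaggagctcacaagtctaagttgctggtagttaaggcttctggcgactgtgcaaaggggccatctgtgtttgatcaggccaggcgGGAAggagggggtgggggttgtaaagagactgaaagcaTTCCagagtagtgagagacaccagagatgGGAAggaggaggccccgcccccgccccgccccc
Serinc3, chr2:163645144-163645393, minus strand: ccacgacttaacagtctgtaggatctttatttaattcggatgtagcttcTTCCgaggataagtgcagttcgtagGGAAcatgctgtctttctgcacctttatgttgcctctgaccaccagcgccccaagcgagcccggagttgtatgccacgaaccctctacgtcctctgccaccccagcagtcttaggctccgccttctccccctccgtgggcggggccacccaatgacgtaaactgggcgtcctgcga

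A promoter window was given for 7 of the 9 genes, and Tmem119 and Selplg had none. The core GGAA was in 7 of the 7 windows and in 93.4% of all 32851 windows of this length, searched on both strands. Fscn1 held 1 copy, Serinc3 2 and Olfml3 5. GAGGAA, a longer form preferred by PU.1, was in 0 of the 7 windows against 23.3% of all windows. GAGGAAGT was also in 0 (2.44% of all), as was the composite element of PU.1 and IRF (2.30%). GAGGAAGT contains GAGGAA, all of them contain GGAA, and a missing match says only that these letters are not in these 250 bases.

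The genes spanned a wide range of levels in microglia of both genotypes. Levels are given in nRPKM, the deposited RPKM values adjusted by a size factor per library, so that genes of different length can be compared. Serinc3 was highest, with a median of 457 nRPKM in non-Tg and 408 in PS2APP. Next came Sparc (305 and 263), Tmem119 (273 and 173), Selplg (221 and 156) and Olfml3 (191 and 145). Golm1 (56.6 and 51.3), Fscn1 (29.4 and 21.2), Crybb1 (17.03 and 10.8) and Ltc4s (13.4 and 9.77) were lower. The order of the medians was the same in both genotypes for 9 of 9 places. Serinc3 was on median the 15.5th most abundant gene of a non-Tg library, and Tmem119 moved from a median rank of 30.5 in non-Tg to 47.0 in PS2APP.

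Within single libraries that order held in all 15 for Serinc3 above Sparc, Olfml3 above Golm1 and Golm1 above Fscn1. The ranges of Olfml3, Golm1 and Fscn1 did not overlap within either genotype. Sparc was above Tmem119 in 4 of 6 non-Tg and 9 of 9 PS2APP libraries. Tmem119 was above Selplg in 10 of 15 libraries and Crybb1 above Ltc4s in 10 of 15, and these neighbours overlapped in range. Selplg was above Olfml3 in 12 and Fscn1 above Crybb1 in 14, also with overlapping ranges. Together the 9 genes took 1.48% to 1.96% of all reads in non-Tg libraries (median 1.74%) and 1.21% to 1.65% in PS2APP (median 1.41%).

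**Figure D1:**
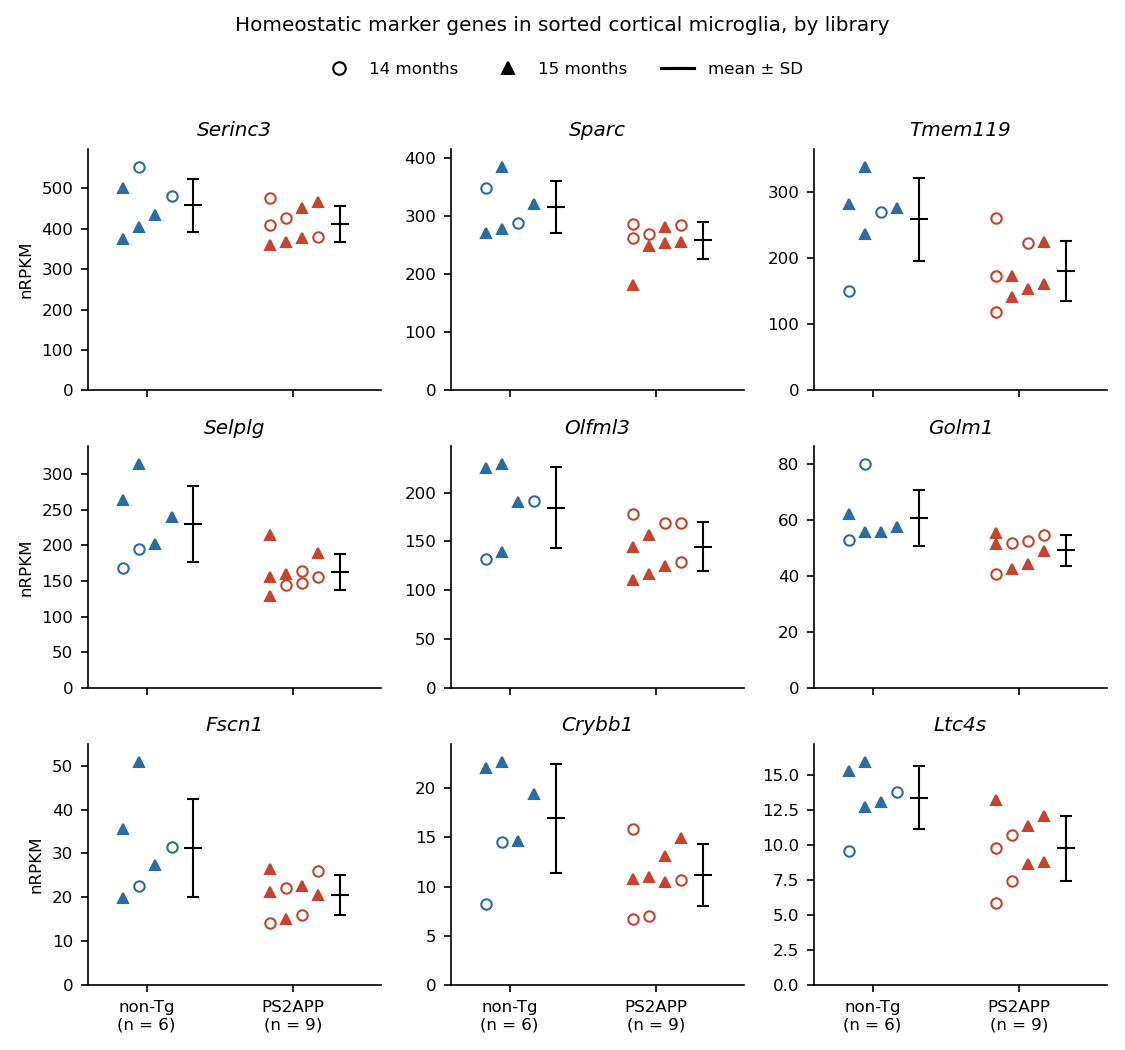
Each panel shows 1 gene in nRPKM (vertical axis, from 0) for the 6 non-Tg libraries in blue and the 9 PS2APP libraries in red, open circles at 14 and triangles at 15 months, with mean ± SD in black. Apart from Serinc3, each gene had 9 of 9 PS2APP libraries below the non-Tg median, yet the genotypes overlapped in every panel. Of all genes tested, 0.0929% had every PS2APP library below every non-Tg library. The share with 9 of 9 below the non-Tg median was not computed.

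The estimated genotype difference was negative for each of the 9 genes, and none passed the test over all genes. Each gene was tested in edgeR's quasi-likelihood model beside age, with Benjamini-Hochberg adjustment over 13994 genes and a threshold of 0.05 on the adjusted p. It called 0 of the 9 genes, against 1.18% of all genes in either direction and 0.222% as lower in PS2APP. At an unadjusted p under 0.05, 8 of the 9 were lower, against 5.95% of all genes lower and 11.7% in either direction. The 9 genes were chosen with earlier results of these data known, so this contrast is no independent evidence. All genes also include many less abundant ones: Ltc4s, the lowest of the 9, had a median rank of 915.5 in non-Tg. DESeq2, limma-voom with quality weights and limma-trend also called 0 of 9, with 8, 7 and 6 at an unadjusted p under 0.05. Over all genes, either direction, that unadjusted threshold took 1751 of 13994 genes with limma-voom and 1611 of 13994 with limma-trend. With DESeq2 it took 2463 of the 25970 genes with a count in any library, of which 17546 had an adjusted p. These counts were not split by direction. The 9 estimates lay between -0.58 and -0.16 on the log2 scale with a median of -0.42, beside a median of -0.02 over all genes tested, of which 52.7% were negative. Fewer microglia among the sorted cells and less RNA of these genes per cell cannot be told apart in such bulk libraries. With no count filter 1 of the 9 was called lower, Fscn1, against 1.15% of all genes in that fit.

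Among the surface and membrane genes, Tmem119 ranged from 150.3 to 339 nRPKM in non-Tg libraries (median 273) and from 119 to 261 in PS2APP (median 173). The PS2APP libraries were all below the non-Tg median, and 4 of 6 non-Tg libraries lay above the highest PS2APP library, while the lowest non-Tg library, sample 13, lay among the PS2APP values. The means were 259 ± 62.7 (SD, n = 6) and 181 ± 45.5 (n = 9), which gave -0.50 ± 0.18 (SE) as the log2 fold change (edgeR adjusted p = 0.238). Its 95% interval, from the SE and 12 residual degrees of freedom, ran from -0.90 to -0.10. Such intervals are for 1 gene at a time and lack the adjustment over all genes that the adjusted p has.

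Selplg, its neighbour on the chromosome, ranged from 169 to 314 nRPKM in non-Tg (median 221) and from 129 to 215 in PS2APP (median 156). Here 7 of 9 PS2APP libraries lay below the lowest non-Tg library and the other two, samples 1 and 14, above it, while 3 of 6 non-Tg libraries lay above the highest PS2APP one. The means were 231 ± 53.3 and 162 ± 25.5, and its estimate of -0.46 ± 0.14 (log2) had the smallest adjusted p of the 9 genes (edgeR adjusted p = 0.128, unadjusted p = 0.00284). Serinc3, the widely expressed membrane protein, gave the smallest difference. It ranged from 375 to 553 nRPKM in non-Tg and from 359 to 476 in PS2APP, with 7 of 9 PS2APP libraries below the non-Tg median. Its log2 fold change was -0.16 ± 0.11 (edgeR adjusted p = 0.625), with a 95% interval of -0.40 to 0.08.

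Golm1 of the Golgi membrane had a narrow spread in PS2APP, from 40.6 to 55.4 nRPKM, against 52.9 to 79.9 in non-Tg. Here 7 of 9 PS2APP libraries lay below the lowest non-Tg library and 5 of 6 non-Tg libraries above the highest PS2APP one. Its mean was 60.6 ± 9.93 in non-Tg and 49.1 ± 5.44 in PS2APP, and the estimated log2 difference was -0.31 ± 0.13 (edgeR adjusted p = 0.321).

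The secreted matrix proteins differed by less than Tmem119 in their estimates, with wide and overlapping intervals. Olfml3 ranged from 132 to 229 nRPKM in non-Tg (median 191) and from 111 to 179 in PS2APP (median 145). Non-Tg libraries fell into 4 above every PS2APP value and 2, samples 12 and 13, among them. The log2 fold change was -0.37 ± 0.16 (edgeR adjusted p = 0.353). Sparc ranged from 271 to 385 nRPKM in non-Tg and from 181 to 288 in PS2APP, and 6 of 9 PS2APP libraries lay below the lowest non-Tg one. Its log2 fold change was -0.30 ± 0.12 (edgeR adjusted p = 0.325). Sparc is also made by astrocytes and endothelial cells, and the summed CPM (counts relative to the library's scaled total) of 12 astrocyte markers was 515 to 1192 in non-Tg and 343 to 693 in PS2APP. For 12 endothelial markers it was 158 to 329 and 163 to 354. Astrocyte sums lay below their non-Tg median (778) in 9 of 9 PS2APP libraries (median 530), and endothelial sums in 4 of 9. Of the 12 astrocyte markers tested 8 had a negative estimate and 4 a positive one, beside 52.7% negative over all genes tested. Among them Slc1a2 was called lower and Gfap higher. Of the 9 endothelial ones tested 5 were negative and 4 positive, with 1 called lower and 1 higher (Pecam1 and Flt1). No marker of either list was at 0 in all libraries, and their part in the Sparc difference was not tested.

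The cytoskeletal, crystallin and enzyme genes were the least abundant of the 9, and Fscn1 and Crybb1 had the largest estimates. Fscn1 ranged from 19.8 to 50.9 nRPKM in non-Tg (median 29.4) and from 14.1 to 26.5 in PS2APP (median 21.2). Non-Tg sample 2 alone reached 50.9, and non-Tg samples 9 and 13 lay within the PS2APP range. The means were 31.3 ± 11.2 and 20.5 ± 4.51, and the estimate of -0.58 ± 0.19 (log2) was the largest of the 9 (edgeR adjusted p = 0.187). As a fold this is 1.496, with a 95% interval of 1.12 to 2.005 that is not adjusted for the number of genes. Neurons also express Fscn1, and the summed CPM of 16 neuron markers was 275 to 579 in non-Tg and 74.7 to 549 in PS2APP. Of the 13 neuron markers tested, 2 were called lower (Slc17a7 and Gad2), none of the 16 was at 0 in all libraries, and with the neuron score as a covariate Fscn1 stood at -0.54 ± 0.25. The same covariate moved Tmem119 most, from -0.50 to -0.31 ± 0.23.

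Crybb1 ranged from 8.26 to 22.7 nRPKM in non-Tg and from 6.74 to 15.8 in PS2APP, with 2 PS2APP libraries below the lowest non-Tg library. Its log2 fold change was -0.51 ± 0.20 (edgeR adjusted p = 0.298), and it varied most within non-Tg after Fscn1, with an SD of 32.6% of its mean. Ltc4s ranged from 9.56 to 15.97 nRPKM in non-Tg and from 5.86 to 13.2 in PS2APP, with 4 PS2APP libraries below the lowest non-Tg one. Its log2 fold change was -0.42 ± 0.16 (edgeR adjusted p = 0.276). Counts behind these values were 292 to 1308 per library for Crybb1 and 368 to 1089 for Ltc4s, against 5436 to 18293 for Tmem119. Leukotriene synthesis is also known in border-associated macrophages. Their 11 markers summed to 212 to 645 CPM in non-Tg and 304 to 520 in PS2APP, with 0 of 11 called in either direction and none at 0 in all libraries.

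**Figure D2:**
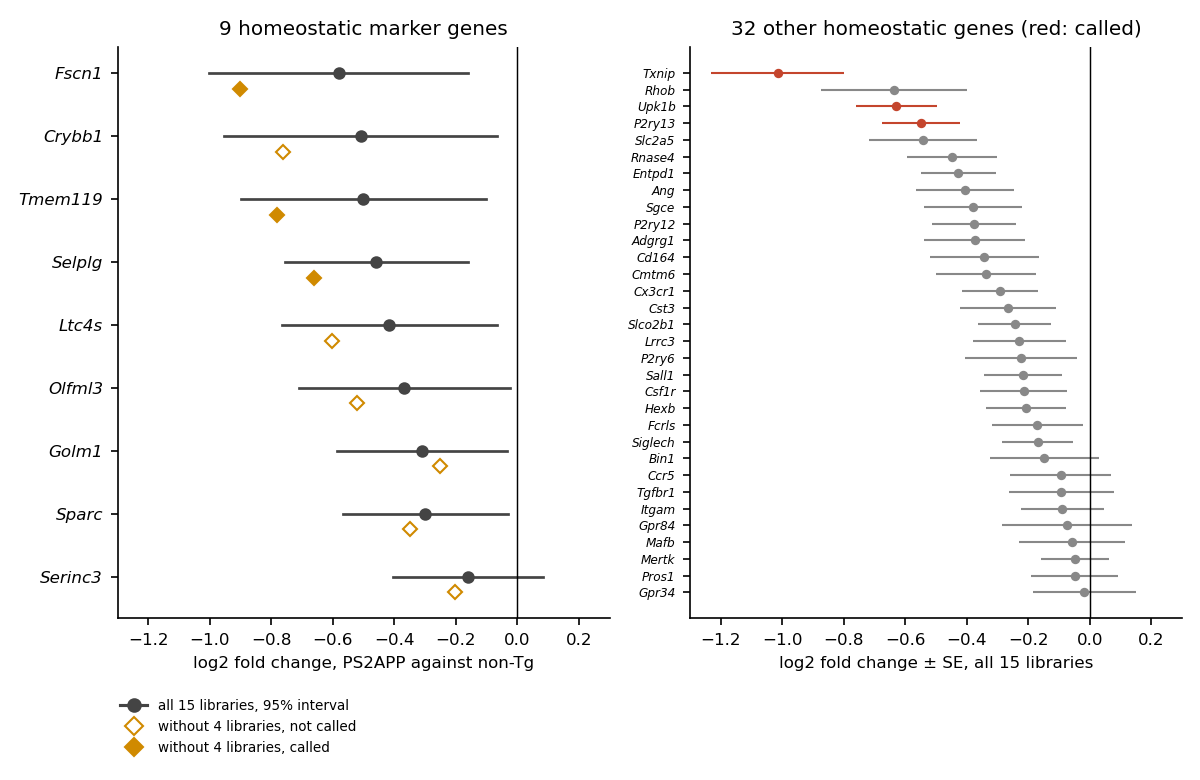
Left, log2 fold change of PS2APP against non-Tg for the 9 genes with all 15 libraries (circles, lines are unadjusted 95% intervals per gene). Diamonds, filled where called, are the fit with 4 libraries of high immediate early genes dropped. Right, log2 fold change ± SE for 32 other homeostatic genes, red where called. Estimates on the left run from -0.58 for Fscn1 to -0.16 for Serinc3, and on the right each is below 0 and 3 are called.

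Immediate early genes, which cells switch on within minutes of handling or stimulation, set 4 libraries apart: PS2APP samples 1 and 4 and non-Tg samples 9 and 13. Their mean log2 CPM over 17 such genes was 6.69 to 8.95, against 2.88 to 3.64 in the other libraries. Non-Tg sample 13 was the lowest non-Tg library for 5 of the 9 genes (Tmem119, Olfml3, Selplg, Crybb1 and Ltc4s) but the highest for Golm1, and non-Tg sample 9 was lowest for Fscn1. In PS2APP, samples 1 and 4 held the highest value for 7 of the 9, sample 1 for Selplg, Fscn1, Golm1 and Ltc4s and sample 4 for Tmem119, Sparc and Crybb1. The cause of this pattern was not tested, and sample 13 is also 1 of only 2 non-Tg libraries at 14 months.

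With these 4 libraries left out, a choice made after earlier results had shown them, 3 of the 9 genes were lower in PS2APP at an adjusted p under 0.05 (edgeR), against 0.211% of all genes in that fit. Fscn1 was 1.87-fold lower (log2 -0.90 ± 0.19, edgeR adjusted p = 0.0258), Tmem119 1.72-fold lower (-0.78 ± 0.17, adjusted p = 0.0331) and Selplg 1.58-fold lower (-0.66 ± 0.15, adjusted p = 0.0444). Crybb1 stood at -0.76 ± 0.19 (edgeR adjusted p = 0.0606) and Ltc4s at -0.60 ± 0.19. Golm1 went the other way in size, from -0.31 with all libraries to -0.25. The estimates for Olfml3 (-0.52), Sparc (-0.35), Serinc3 (-0.20) and Golm1 stayed within 1 SE of those from all libraries. As the 4 libraries held the lowest non-Tg or highest PS2APP values named above, leaving them out widens most of those differences by itself. The 3 calls are therefore no independent evidence. Non-Tg sample 5 is then the only non-Tg library at 14 months.

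A set of 3 libraries, non-Tg samples 12 and 13 and PS2APP sample 14, had more reads of Y-linked genes than of Xist, unlike the other 12. Without them Olfml3 moved from -0.37 to -0.64 and Tmem119 from -0.50 to -0.72, and 0 of the 9 genes were called, with edgeR adjusted p from 0.102 for Olfml3 upwards. Golm1 went down in size to -0.21.

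The label of sorted microglia was checked against markers. The 32 other homeostatic genes summed to 60951 to 79418 CPM in non-Tg and 48065 to 69292 in PS2APP. Markers of monocytes and neutrophils, leukocytes that also carry Selplg, summed to 283 to 549 and 325 to 683 CPM, and those of lymphocytes to 11.1 to 34.6 and 7.83 to 19.99. Only 4 of the 12 monocyte and neutrophil markers and 1 of the 13 lymphocyte markers passed the count filter, and 0 of them were called. The part of such cells in the Selplg difference was not tested. Markers of mural cells and fibroblasts summed to 13.6 to 323 CPM in non-Tg (median 30.2) and 10.2 to 345 in PS2APP (median 17.4). The highest sums were in non-Tg sample 5 (323) and PS2APP samples 6 and 8 (293 and 345). Of the 4 such markers tested, 0 were called, and their part in the Sparc difference was not tested. Markers of choroid plexus and ependyma summed to 10.1 to 427 CPM in non-Tg (median 61.6) and 13.6 to 34.7 in PS2APP (median 20.2), highest in non-Tg samples 9 and 13 at 427 and 123. PS2APP libraries lay below the non-Tg median in 9 of 9, and 2 of the 3 tested, Ttr and Enpp2, were called lower, while Tmem212 and Dynlrb2 were at 0 throughout. The part of these cells in the differences of the 9 genes was not tested.

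**Figure D3:**
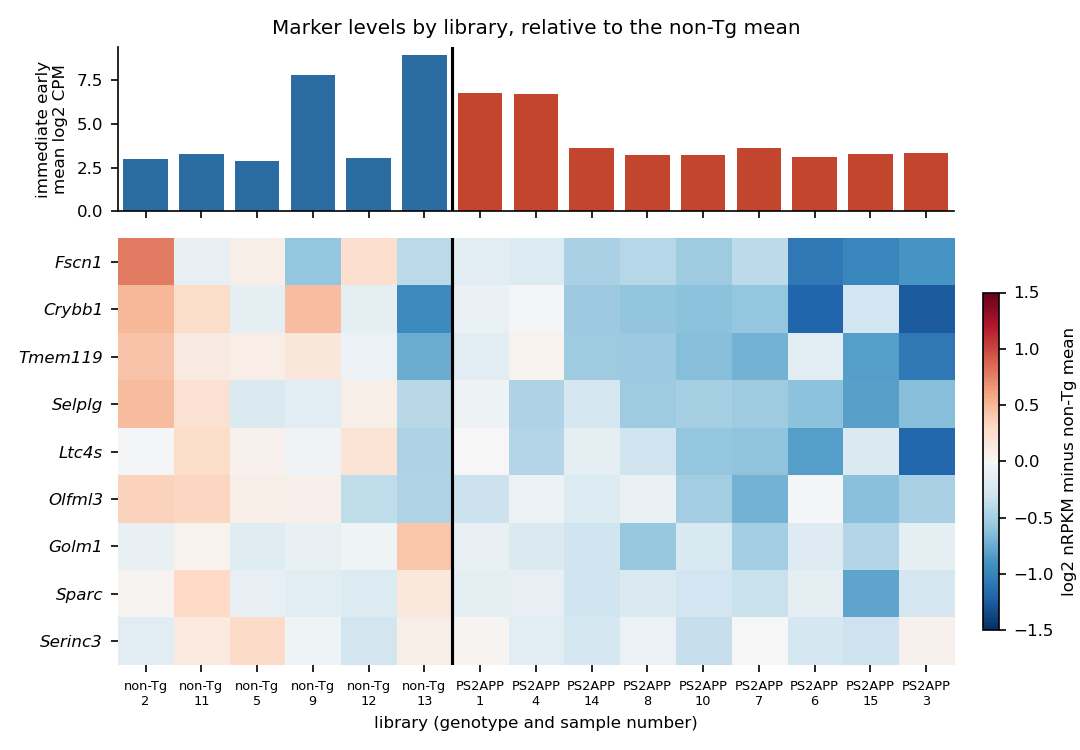
Top, mean log2 CPM of 17 immediate early genes per library. Bottom, log2 nRPKM of each gene minus its mean over the non-Tg libraries (red higher, blue lower), libraries ordered within genotype by their mean over the 9 genes. PS2APP samples 1 and 4, which are high in immediate early genes, stand first among the PS2APP libraries, and non-Tg sample 13 stands last among the non-Tg libraries.

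Single libraries did not share 1 level across the 9 genes. Non-Tg sample 2 was the highest of all 15 for Tmem119, Olfml3, Selplg, Crybb1 and Fscn1, and non-Tg sample 11 for Sparc and Ltc4s. PS2APP sample 3 was lowest for Tmem119, Crybb1 and Ltc4s but held the highest PS2APP value of Serinc3. PS2APP sample 15 was among the 3 lowest libraries for 7 of the 9 genes. Ratios to Serinc3 within a library do not depend on how libraries are scaled. Crybb1 had 1.72 to 5.62 nRPKM per 100 nRPKM of Serinc3 in non-Tg and 1.42 to 3.88 in PS2APP, with 9 of 9 PS2APP libraries below the non-Tg median. Tmem119 had 31.2 to 83.8 and 25.1 to 63.8, with 8 of 9 below, and Selplg 35.0 to 77.7 and 30.5 to 49.9, also with 8 of 9. For Fscn1 the count was 5 of 9.

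Over the 9 PS2APP libraries the genes varied together only in part. Of 36 pairs, 26 had a positive Pearson r of their log2 CPM, with a median of 0.38 and a range of -0.22 to 0.82. None passed an exact permutation test after Benjamini-Hochberg adjustment over the 36 pairs, and 5 had an unadjusted p under 0.05. The closest were Crybb1 with Ltc4s (r = 0.82, exact permutation p = 0.00695, adjusted p = 0.25), Selplg with Fscn1 (r = 0.75) and Tmem119 with Olfml3 (r = 0.71). The neighbours Tmem119 and Selplg stood at r = 0.51. These libraries share the split in immediate early genes described above.

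The plaque-associated program was compared with the 9 genes inside PS2APP, where genotype cannot make the relation. The score is the mean log2 CPM of 30 genes known from microglia at plaques and ran from 7.498 in sample 4 to 8.75 in sample 8. Pearson's r with the score was negative for 7 of the 9 genes, from -0.48 for Golm1 (Spearman's rho -0.38) and -0.47 for Crybb1 (rho -0.57) to 0.21 for Olfml3 (rho 0.07). Single libraries moved these values: Golm1 stood at -0.14 without sample 8, Fscn1 at -0.13 and Ltc4s at -0.04 without sample 6. No relation passed an exact two-sided permutation test adjusted over the 9, where the smallest adjusted p was 0.789 for r and 0.562 for rho. Samples 6 and 8, both at 14 months, had scores of 8.50 and 8.75 and lay farthest from the median. They also had the highest mural and fibroblast sums of the PS2APP libraries, 293 and 345 CPM. Without samples 6 and 8 r was -0.94 for Olfml3 and -0.71 for Tmem119 over 7 libraries, and Sparc went from 0.05 to -0.48. All 9 genes had a negative r without that pair, so the values over all 9 libraries depend on it, most for these 3 genes. No test was run on r over the 7 libraries. Among them samples 1 and 4, high in immediate early genes, had scores of 7.74 and 7.498.

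**Figure D4:**
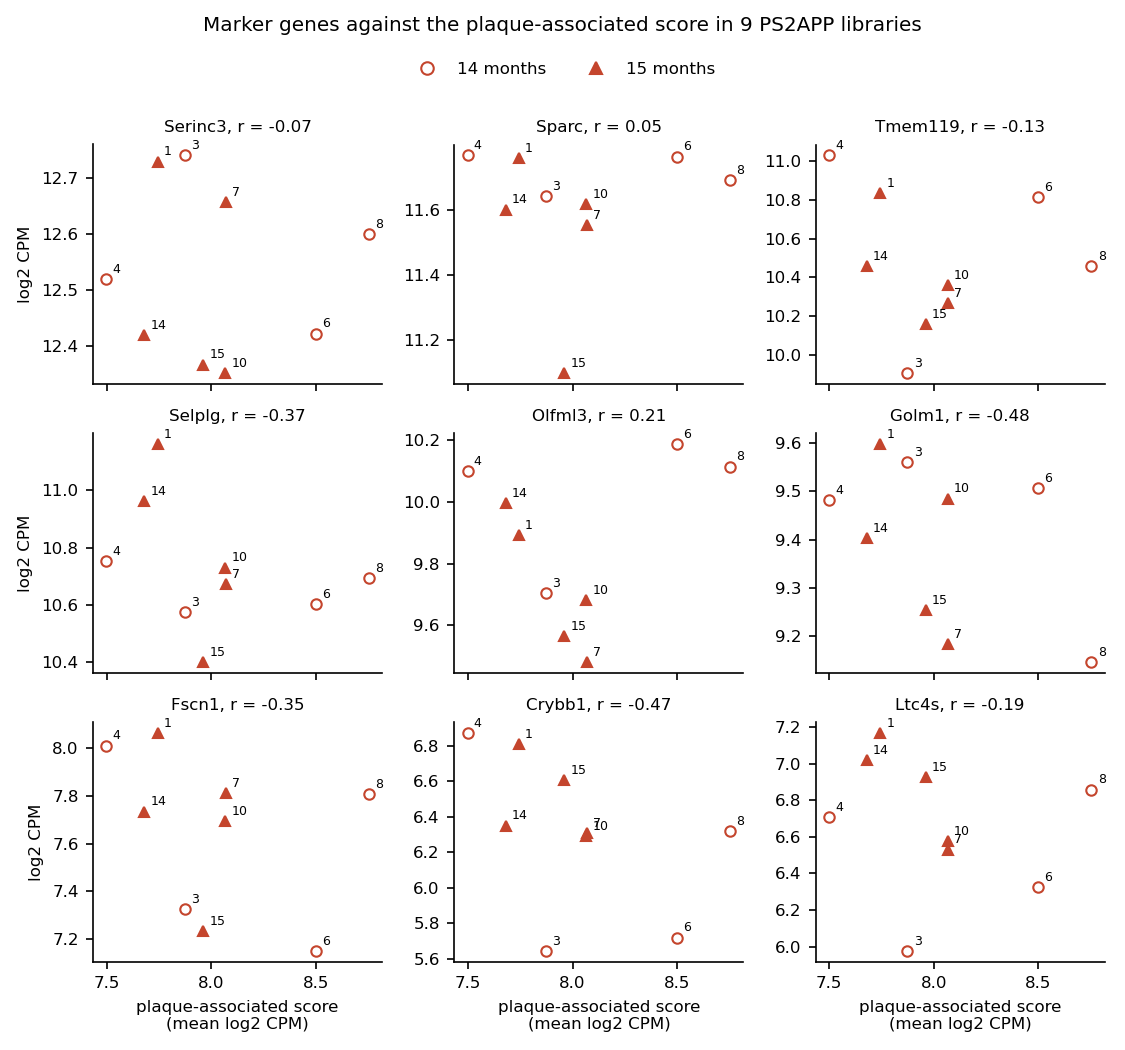
Each panel plots log2 CPM of 1 gene (vertical axis, own scale) against the plaque-associated score (horizontal axis, mean log2 CPM of 30 genes) in the 9 PS2APP libraries, numbered by sample, with Pearson's r. Samples 6 and 8 stand to the right, and in the panel of Olfml3 they lie above a falling line of the other 7.

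Age and its combination with genotype gave no call among the 9 genes. Between 15 and 14 months, 0 of the 9 genes and 0% of all genes passed with edgeR, 1 of the 9 had an unadjusted p under 0.05 against 7.95% of all genes, and DESeq2 also called 0 of 9, with 83 called over all genes. That gene was Crybb1, with a log2 difference of 0.46 ± 0.21 (edgeR unadjusted p = 0.0383, adjusted p = 0.619), and 4.7% of all genes were higher at 15 months at that unadjusted threshold. Ltc4s (0.33 ± 0.16) and Selplg (0.28 ± 0.14) came next. The test of a genotype difference that changes with age called 0 of 9 and 0% of all genes, with 0 of 9 at an unadjusted p under 0.05 by edgeR and by DESeq2, against 7.42% of all genes by edgeR. DESeq2 called 5 genes overall for this term.

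Levels at each age are given side by side. Tmem119 averaged 210.1 nRPKM (150.3 and 270 in the 2 libraries) in non-Tg at 14 months and 284 ± 42.1 (SD, n = 4) at 15 months, against 194 ± 61.4 (n = 4) and 171 ± 32.03 (n = 5) in PS2APP. The genotype estimate for Tmem119 was -0.07 ± 0.34 at 14 months alone and -0.73 ± 0.16 at 15 months alone, and the interaction was -0.62 ± 0.36 (edgeR adjusted p = 0.701). Without non-Tg sample 13 that interaction was -0.28, and without sample 5, the other non-Tg library at 14 months, it was -1.09, each time with 1 library left there that is assumed to vary like the rest. For Olfml3 the estimates were 0.04 ± 0.26 and -0.59 ± 0.17, with an interaction of -0.59 ± 0.30 (edgeR adjusted p = 0.681), which was -0.36 without non-Tg sample 13 and -0.87 without sample 5. For Ltc4s they were -0.42 ± 0.29 and -0.40 ± 0.19, and for Golm1 -0.37 ± 0.26 and -0.26 ± 0.15. A genotype difference that depends on age was not detected for any of the 9.

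The other genes of the homeostatic class gave the same sign. In a list of 32 further markers, all tested, 3 were lower in PS2APP, against 0.222% of all genes, 0 were higher and 29 were not called. All 32 estimates were negative, with a median log2 fold change of -0.24 against -0.42 for the 9 genes, and 13 of 32 were lower at an unadjusted p under 0.05, against 5.95% of all genes. The 9 genes and this list were chosen with results of these data known, so the shared sign is no independent evidence. Upk1b, a tetraspanin known as uroplakin 1B, ranged from 26.1 to 38.1 nRPKM in non-Tg and from 15.4 to 23.3 in PS2APP. Every PS2APP library was below every non-Tg library, as for 0.0929% of all genes, and Upk1b fell by 0.63 ± 0.13 on the log2 scale (edgeR adjusted p = 0.0144). Dropping each library in turn kept the call in 15 of 15 fits, and it was called in 26 of 31 alternatives in all. When the 4 libraries with high immediate early genes were dropped the estimate stayed at -0.63 but was not called (edgeR adjusted p = 0.0746). It was also not called at 14 or 15 months alone (edgeR adjusted p = 0.492 and 0.130), without the 3 libraries with little Xist (0.0865) or with the neuron score as a covariate (0.263). Txnip, a thioredoxin-binding protein (-1.01 ± 0.22), and P2ry13, a purinergic receptor (-0.55 ± 0.13), were the others, called in 13 and 8 of those 15 fits. Over all 31 alternatives they were called in 22 and 16. Without the 4 libraries with high immediate early genes neither was called, with Txnip at -0.67 and P2ry13 at -0.50. Txnip was not called without non-Tg sample 9 or 13, and P2ry13 was not called without any of PS2APP samples 6, 7 and 15 or non-Tg samples 5, 9, 11 and 13. The next by adjusted p were Entpd1 (-0.43 ± 0.12), the fructose transporter Slc2a5 (-0.54 ± 0.18), the ribonuclease Rnase4 (-0.45 ± 0.15) and the purinergic receptor P2ry12 (-0.38 ± 0.14).

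Genes whose pattern over the 15 libraries was most like the mean standardised profile of the 9 were ranked by Pearson's r of log2 CPM, as a description of libraries that share their composition. Slc13a3, a sodium-coupled dicarboxylate transporter, had r = 0.93, Csk, a kinase that restrains Src family kinases, 0.91, and Susd3 0.91. Centred within genotype they had 0.93, 0.82 and 0.84. The most opposite were Eea1, an early endosome protein, and Btbd10, both at -0.91, and Tmpo, a nuclear lamina protein, at -0.90. Of the 9 genes themselves, which are part of the profile, Selplg was nearest to it (0.91), then Tmem119 (0.85), and Golm1 (0.51) and Serinc3 (0.44) were farthest. Centred within genotype Golm1 stood at 0.03 and Serinc3 at 0.20.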

How the data were processed

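RNA of sorted Cx3cr1-GFP-positive cortical cells was extracted with a column kit, per the labels' protocols. The submitters' processing notes name GSNAP and GRCm38; no source gives the version, annotation, library kit or strandedness. Per the file headers, each library has the count of reads aligning uniquely to a gene model, and nRPKM, an RPKM adjusted by the authors with a size factor per sample, whose computation is not stated. Counts were used for tests and RPKM for levels.

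NCBI Gene IDs were named from a RefSeq table of GRCm38.p6, which matched 31049 of 36528. The model was fitted in R 4.3.3 with edgeR 4.0.16 (filterByExpr, TMM, quasi-likelihood model with age and genotype, all 15 samples, Benjamini-Hochberg over 13994 genes). The standard error is the size of the log2 fold change over the square root of F. Log2 CPM used a prior count of 2. Simulated counts served only to check that the fit runs as intended. How often it would call folds as small as those of the 9 genes, 1.12 to 1.50, was not tested. Sample numbers run through both genotypes and cannot show a pairing, so nothing was paired. The other genes named are those called in the homeostatic list, the next 4 by adjusted p, and the 3 most and 3 least alike in pattern. The 9 genes, the lists, the libraries left out together and the tests were chosen with earlier results of these data known. Alternatives were other scaling, filters, covariates, DESeq2 1.42.0, limma 3.58.1, sva 3.50.0, ages alone and libraries left out; library sex as a covariate and the motif GGAA were added after seeing the data.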

Additional observations from a re-analysis of the deposited data

Results flagged for a closer look

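Of 18 groups of values, the 9 genes in each genotype, 2 held a library whose gap to its nearest neighbour was a large share of the group's range by Dixon's test, which flags about 1 in 20 groups by chance. Sparc stood at 181 nRPKM in PS2APP sample 15, the lowest of the 9, with a gap of 0.638 of the range (critical value 0.493). Without that library its log2 fold change was -0.25. Golm1 stood at 79.9 nRPKM in non-Tg sample 13, the highest of the 6, with a gap of 0.657 (critical value 0.625). Without it the Golm1 estimate was -0.22.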

How the results depend on the processing

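With 1 library left out in turn, 135 of 135 genotype estimates for the 9 genes stayed below 0 and none was called, with adjusted p from edgeR of at least 0.0722. Over 16 other alternatives 143 of 144 were below 0. The exception was Olfml3 at 14 months alone, at 0.041. The count of the 9 genes called lower went from 0 to 3 with the 4 libraries of high immediate early genes dropped, and to 1, Fscn1 (edgeR adjusted p = 0.0444), with no count filter. With the neuron score as a covariate Tmem119 went from -0.50 to -0.31, and the cause was not tested. Dropping the 3 libraries with little Xist, Tmem119 stood at -0.72 and Golm1 at -0.21. Correlations with the plaque-associated score that changed sign when 1 PS2APP library was left out ran from -0.35 to 0.22 for Tmem119, -0.067 to 0.47 for Olfml3, -0.085 to 0.23 for Sparc and -0.26 to 0.060 for Serinc3. Called genes overall numbered 165, but 482 with DESeq2, 648 with no count filter, 50 at 14 months, 65 at 15 months, 81 without the 3 libraries low in Xist and 37 with the neuron score. DESeq2 called 83 genes for age and 5 for the interaction, against 0 and 0. No paired analysis was run, because the sample numbers run through both genotypes and cannot show which libraries, if any, belong together. The lowest counts, 292 to 1308 for Crybb1, limit precision less than the spread between libraries.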
